A study of Mus musculus with 11 samples.

Results

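Arteries and veins differ in the genes their endothelial cells express, and 9 of these identity genes were followed in endothelial cells sorted from the retinas of 11 mice with oxygen-induced retinopathy (OIR). They were taken by symbol from a list of arterial and venous markers and matched through the GENCODE mouse annotation to the Ensembl identifiers of the 55359 genes counted in each mouse. Of the 9 genes, 6 mark arterial cells (Gja4, Gja5, Bmx, Gkn3, Efnb2 and Tmem100) and 3 mark venous cells (Nr2f2, Aplnr and Ephb4). Every one of them passed the filter on low counts that left 17050 genes for testing. Aplnr, Gja4 and Ephb4 were among the most abundant transcripts of these cells, Gja5 was among the most variable for its level, and no difference between mice injected with oncostatin M (OSM) and mice injected with buffer passed the test for any of the 9.

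As background, arterial fate in endothelial cells depends on VEGF and Notch signaling, which the RBPJ protein carries to DNA, and blood flow maintains it. Venous fate depends on the nuclear receptor COUP-TFII, the product of Nr2f2, which holds Notch signaling down. The membrane ligand ephrin-B2 (Efnb2) on arterial cells and its receptor EphB4 (Ephb4) on venous cells signal to each other and keep the territories apart. In the retina, arteries and veins alternate around the optic nerve head with capillary beds between them, and in the OIR model pathological tufts grow mainly from veins.

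In the OIR model, exposure of C57BL/6 pups to high oxygen closes part of the retinal vessels, and after the return to room air new vessels sprout into the hypoxic retina. Mice received 0.5 µL intravitreally at P12, either OSM at 100 ng/µL (5 mice: 1, 2, 5, 6 and 9) or the PBS vehicle (6 mice: 3, 4, 7, 8, 10 and 11). At P17, CD31+ CD45- cells were sorted, and both retinas of a mouse formed 1 sample. All mice went through OIR, so no sample comes from a healthy retina. Each litter was 1 OIR run: litter 1 held mice 1 to 4, litter 2 mice 5 to 8, and litter 3 mice 9 to 11, each with both treatments. The methods of the study mention PBS in contralateral eyes, and leave unstated if a sequenced OSM mouse had OSM in 1 eye or in both. The sort collects arterial, venous and capillary cells together, so fewer cells of a type and less RNA per cell cannot be told apart.

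The start regions of both arterial connexin genes are shown because, of the arterial genes, Gja4 had the narrowest fold range between mice and Gja5 the widest. These are the 250 bases before the RefSeq start (table build GRCm38.p6), each matched exactly once to GRCm39 and given 5′ to 3′ on the strand of the gene, at chr4:127207833-127208082 on the minus strand for Gja4 and at chr3:96939468-96939717 on the plus strand for Gja5. In GENCODE, the last 19 bases of the Gja4 window lie in an exon of Gja4. The Gja5 window lies wholly inside the gene as annotated, 127 kb after its outermost start, and its last 7 bases lie in an exon, so it precedes one of several annotated starts. Capitals mark the GC box (GGGCGG on either strand).
Gja4: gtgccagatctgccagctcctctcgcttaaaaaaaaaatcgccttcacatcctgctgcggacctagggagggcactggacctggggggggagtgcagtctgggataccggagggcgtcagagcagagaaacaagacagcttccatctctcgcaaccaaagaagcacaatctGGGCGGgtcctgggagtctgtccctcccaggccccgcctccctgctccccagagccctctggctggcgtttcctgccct
Gja5: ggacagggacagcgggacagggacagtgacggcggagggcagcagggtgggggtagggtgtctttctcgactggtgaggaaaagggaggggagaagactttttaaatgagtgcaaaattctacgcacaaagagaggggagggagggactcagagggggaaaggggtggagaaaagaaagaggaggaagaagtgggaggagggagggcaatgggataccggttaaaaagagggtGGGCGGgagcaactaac

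Both connexin windows held 1 GC box, at 79 to 74 bases before the start in Gja4 and at 17 to 12 bases before it in Gja5. RefSeq entries were found for 7 of the 9 genes, all but Tmem100 and Aplnr. The GC box was in 4 of these 7 windows (Gja4, Gja5, Efnb2 and Ephb4) and in 32.7% of all 32851 promoter windows of the same length. The core letters TGGGAA, bound by RBPJ, were in the Bmx window alone, against 21.6% of all windows. AGGTCA, a half-site of nuclear receptors such as COUP-TFII, was in 0 of the 7 windows and in 14% of all. A match is a match of letters only, and says nothing about binding.

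Total counts were 26697990 to 56033479 reads per mouse, and the 9 genes were counted from 95 reads (Gja5 in mouse 6) to 123267 reads (Aplnr in mouse 9). Levels are given as CPM, reads relative to the library total scaled by TMM factors, or as RPKM, the same values per kilobase of exon. Of the 10 endothelial markers, 10 had reads in every mouse, with a summed level of 13282 to 17316 CPM. Markers of other cells were present in part: the 12 mural (pericyte and smooth muscle) markers summed to 332 to 1820 CPM, with Acta2 and Tagln detected in every mouse and Myh11 at 0 in some, the 8 rod markers summed to 165 to 4540 CPM, highest in mouse 5, and the 6 erythrocyte markers to 117 to 1129 CPM. The 8 Müller cell and astrocyte markers summed to 1719 to 2176 CPM, and 3 of them (Glul, Apoe and Vim) had reads in every mouse. Vim alone had a mean of 1384 CPM, while Gfap had reads in 4 mice and Aqp4 in 2. The 8 leukocyte markers reached at most 80.3 CPM.

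On the scale per length, the venous receptor gene Aplnr was the highest of the 9 in 11 of 11 mice. The venous transcription factor gene Nr2f2 was the lowest in the mean, though not in every mouse. Aplnr, which encodes the receptor of the peptide apelin, had 517 ± 69.1 RPKM (SD, n = 11 mice) and stood at the 99.8th percentile of the genes tested. Gja4, encoding the gap junction protein connexin 37, followed with 154 ± 33.2 RPKM at the 99.0th percentile, and Ephb4 with 79.5 ± 19.4 RPKM at the 97.5th. These 3 genes held the same order in 11 of 11 mice. The level of Aplnr was above that of Gja4 by 1.76 ± 0.37 on the log2 scale (SD, n = 11), Gja4 was above Ephb4 by 0.97 ± 0.40, and Ephb4 was above the next gene by 3.14 ± 0.65.

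The other 6 genes were far lower and overlapped one another. Bmx, encoding a Tec family kinase of arterial endothelium, had 9.71 ± 4.80 RPKM, Efnb2 8.03 ± 2.18, and Gkn3, a gastrokine gene used as a marker of arterial endothelium in the nervous system, 8.28 ± 3.72. Gja5, encoding connexin 40, had 5.69 ± 3.68 RPKM, Tmem100, encoding a membrane protein induced by ALK1 signaling, 3.65 ± 1.59, and Nr2f2 2.90 ± 0.635, at percentile 58.2. Ordered by mean log2 RPKM, Bmx was above Efnb2 in 7 of 11 mice, Efnb2 above Gkn3 in 5, Gja5 above Tmem100 in 8 and Tmem100 above Nr2f2 in 6, with mean differences below their SD in each of these pairs. Gkn3 was above Gja5 in 10 of 11 mice, by 0.78 ± 1.16 on the log2 scale, also within its spread. Levels per length depend on the exon length used: with the longest transcript in place of all exons, 5 of these lower genes took other ranks, while Aplnr, Gja4 and Ephb4 kept theirs. Tmem100 was then last in place of Nr2f2, with a mean of 6.47 RPKM for each.

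**Figure D1:**
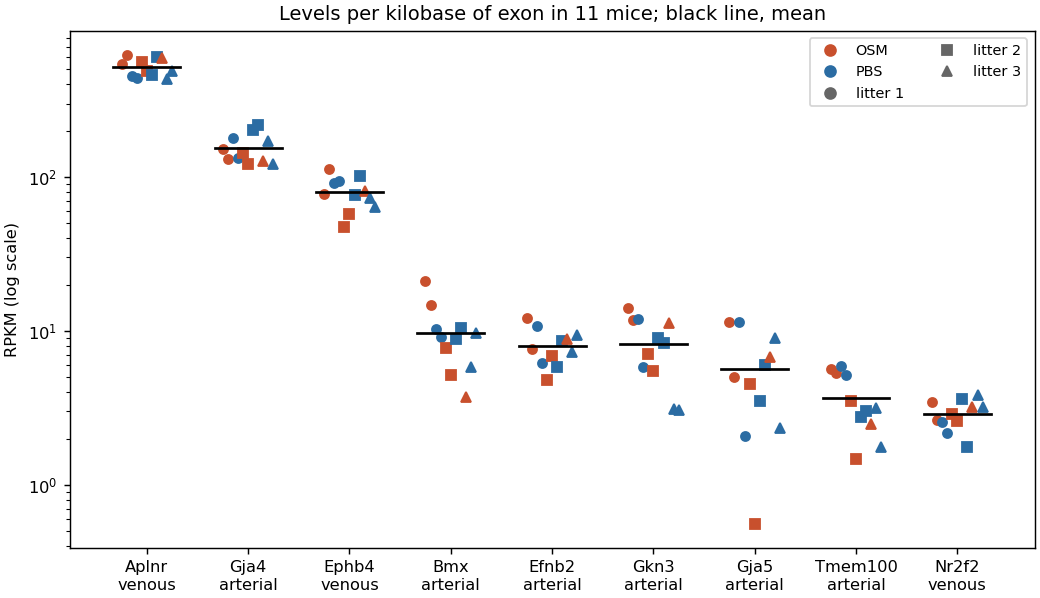
Level of each gene in RPKM (log axis) in 11 mice, ordered by mean log2 RPKM. Points are mice, colored by treatment (OSM or PBS) with a symbol for each litter, and the black line is the mean RPKM. Aplnr, Gja4 and Ephb4 stand apart from one another in every mouse by level, and the other 6 genes overlap. The lowest point is Gja5 in mouse 6 at 0.556 RPKM.

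Gja4 made up most of the arterial signal. It accounted for 81.4% ± 5.29 (SD, n = 11) of the summed RPKM of the 6 arterial genes, and Aplnr for 86.2% ± 2.80 of that of the 3 venous genes. Nr2f2 contributed 0.496% ± 0.141 of the venous sum. Within the ligand and receptor pair, Ephb4 was above Efnb2 by 3.31 ± 0.42 on the log2 RPKM scale, with a range of 2.68 to 3.91 over the 11 mice. Because the arteries and veins were sorted together, these ratios cover the whole retina and not cells of 1 vessel type.

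Gja4 (chromosome 4, 127205214 to 127207851, minus strand) had the narrowest fold range of the arterial genes, though 81.9% of genes of its level varied less. In litter 1 it had 330 and 282 CPM in OSM mice 1 and 2 and 388 and 284 CPM in PBS mice 3 and 4. In litter 2 it had 306 and 263 CPM in OSM mice 5 and 6 and 434 and 466 CPM in PBS mice 7 and 8. In litter 3 it had 272 CPM in OSM mouse 9 and 368 and 263 CPM in PBS mice 10 and 11. The OSM mice lay between 263 and 330 CPM, the lower part of the PBS range of 263 to 466, and the highest mouse was 1.77-fold above the lowest. An lncRNA on the opposite strand, Gm69784 in the annotation used here, covers 31.8% of the Gja4 exon bases and is not among the genes counted, and reads of the 2 strands were counted together.

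Gja5 (chromosome 3, 96812009 to 96984732, plus strand) encodes the other arterial connexin of this list and varied far more. It had 68.5 and 29.9 CPM in OSM mice 1 and 2 and 67.9 and 12.5 CPM in PBS mice 3 and 4 of litter 1. In litter 2, OSM mice 5 and 6 had 26.8 and 3.32 CPM, and PBS mice 7 and 8 had 20.8 and 35.7 CPM. Litter 3 had 40.2 CPM in OSM mouse 9 and 53.8 and 14.0 CPM in PBS mice 10 and 11. The highest mouse was 20.7-fold above the lowest, with both extremes in the OSM group. Mice of the same litter and treatment also differed, by 2.29-fold (mice 1 and 2), 5.45-fold (3 and 4), 8.09-fold (5 and 6), 1.72-fold (7 and 8) and 3.85-fold (10 and 11). Gja4 differed at most 1.40-fold in these 5 pairs.

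Bmx (chromosome X, 162975838 to 163041195, minus strand) was highest in the OSM mice of litter 1, with 65.1 and 45.6 CPM in mice 1 and 2. PBS mice 3 and 4 of that litter had 32.0 and 28.3 CPM. Litter 2 had 24.2 and 16.0 CPM in OSM mice 5 and 6 and 27.6 and 32.5 CPM in PBS mice 7 and 8. Litter 3 had 11.5 CPM in OSM mouse 9 and 18.0 and 30.0 CPM in PBS mice 10 and 11. The OSM mice thus lay above the PBS mice in litter 1 and below them in litters 2 and 3. The 6 PBS mice spanned 18.0 to 32.5 CPM, within the 11.5 to 65.1 CPM of the OSM mice.

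Efnb2 (chromosome 8, 8667226 to 8711249, minus strand) had 87.5, 55.0, 34.7, 49.8 and 64.6 CPM in OSM mice 1, 2, 5, 6 and 9. In PBS mice 3, 4, 7, 8, 10 and 11 it had 77.4, 45.0, 42.0, 62.7, 53.0 and 68.0 CPM. The group means were 58.3 ± 19.6 CPM (SD, n = 5) and 58.0 ± 13.8 CPM (SD, n = 6), with wide overlap. Genes on the opposite strand that were also counted share 10.3% of the Efnb2 exon bases.

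Gkn3 (chromosome 6, 87360238 to 87365917, minus strand) was the least abundant of the 9 in CPM. OSM mice 1, 2, 5, 6 and 9 had 16.1, 13.4, 8.03, 6.28 and 12.8 CPM. PBS mice 3, 4, 7, 8, 10 and 11 had 13.7, 6.60, 10.2, 9.53, 3.55 and 3.51 CPM. The groups overlapped, with means of 11.3 ± 4.04 and 7.85 ± 4.03 CPM (SD, n = 5 and 6). The lowest values were those of the 2 PBS mice of litter 3, and OSM mouse 9 of the same litter lay among the higher ones.

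Tmem100 (chromosome 11, 89921122 to 89928844, plus strand) followed the litter more than the treatment. In litter 1, OSM mice 1 and 2 had 36.6 and 34.1 CPM and PBS mice 3 and 4 had 38.0 and 33.1 CPM. In litter 2, OSM mice 5 and 6 had 22.5 and 9.50 CPM and PBS mice 7 and 8 had 17.7 and 19.4 CPM. In litter 3, OSM mouse 9 had 16.1 CPM and PBS mice 10 and 11 had 20.4 and 11.4 CPM. All 4 mice of litter 1 were above all 7 mice of the other litters, and within each litter the treatments overlapped.

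Aplnr (chromosome 2, 84966569 to 84970267, plus strand) had the narrowest fold range of the 9 genes, 1.44-fold over all mice. OSM mice 1, 2, 5, 6 and 9 had 2010, 2304, 2060, 1806 and 2203 CPM. PBS mice 3, 4, 7, 8, 10 and 11 had 1672, 1639, 1701, 2212, 1604 and 1813 CPM. Of the PBS mice, 4 lay below every OSM mouse, and mice 8 and 11 lay inside the OSM range.

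Ephb4 (chromosome 5, 137348274 to 137376931, plus strand) had 390, 568, 239, 288 and 407 CPM in OSM mice 1, 2, 5, 6 and 9. PBS mice 3, 4, 7, 8, 10 and 11 had 458, 471, 381, 509, 366 and 318 CPM. Mouse 2 was the highest and mouse 5 the lowest, both injected with OSM. In litter 2 both OSM mice were below both PBS mice, which was not so in the other litters.

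Nr2f2 (chromosome 7, 70001692 to 70016519, minus strand) had 32.7, 24.7, 27.0, 24.3 and 30.1 CPM in OSM mice 1, 2, 5, 6 and 9. PBS mice 3, 4, 7, 8, 10 and 11 had 23.9, 20.5, 33.8, 16.6, 36.3 and 30.4 CPM. The OSM values lay inside the PBS range, and PBS mice 7 and 8 of the same litter differed by 2.03-fold. The counted lncRNA B130024G19Rik, on the opposite strand, shares 13% of the Nr2f2 exon bases.

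**Figure D2:**
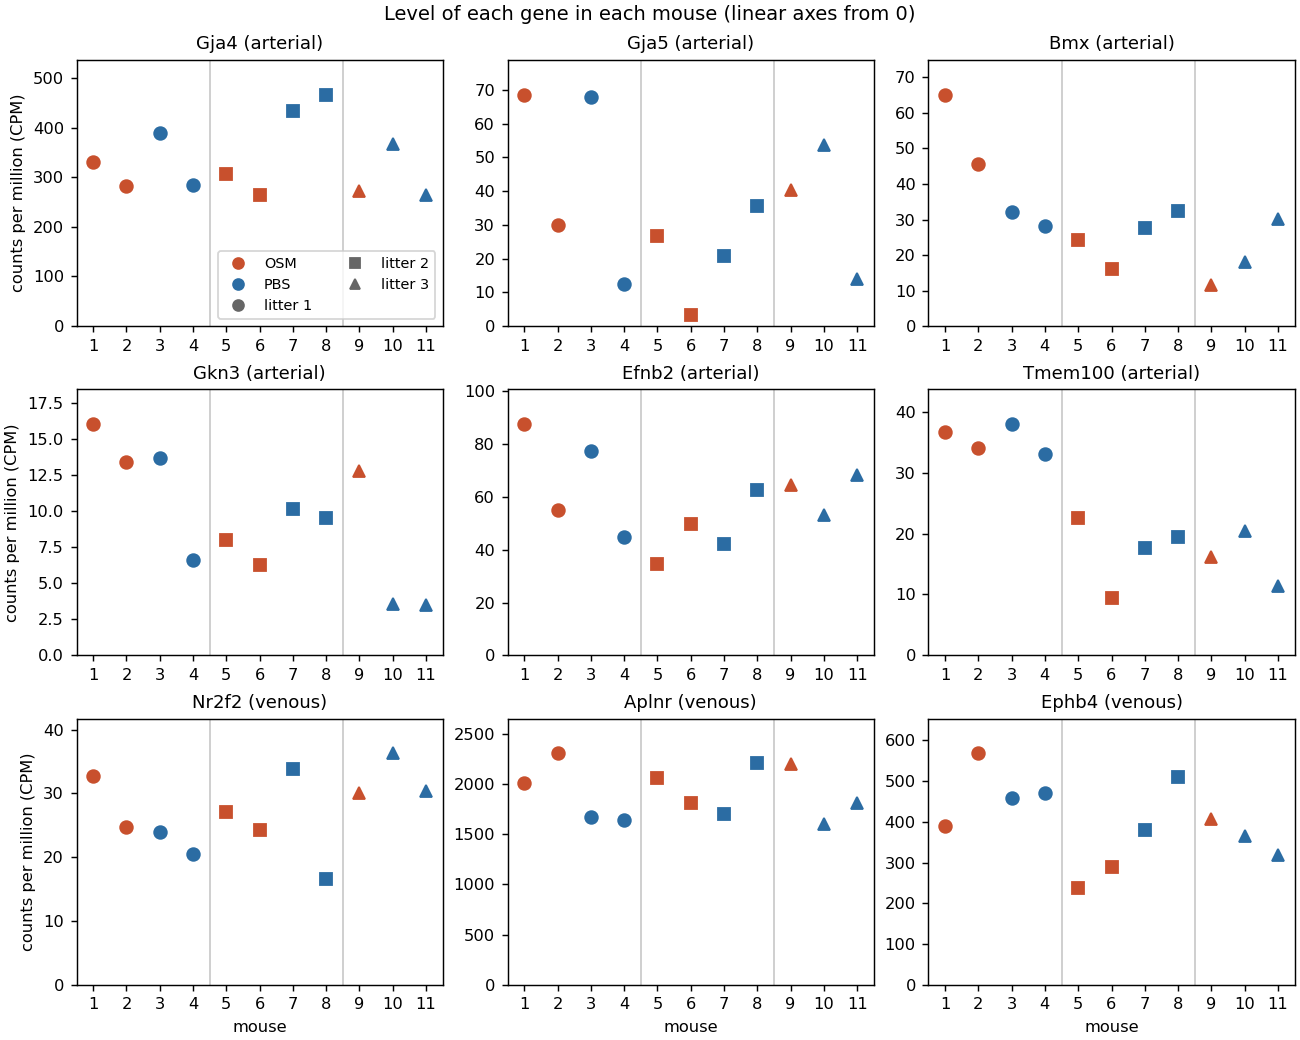
CPM (linear axes from 0) of the 9 genes in mice 1 to 11, 1 panel a gene, with colors for OSM and PBS and symbols and vertical lines for the 3 litters. Tmem100 is at 33.1 to 38.0 CPM in the 4 mice of litter 1 and at most 22.5 CPM in the others, Gja5 differs widely between mice of the same litter and treatment, and OSM and PBS mice overlap in each panel.

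Mouse 1 (OSM, litter 1) was the highest for 4 of the 6 arterial genes, namely Gja5, Bmx, Gkn3 and Efnb2, and mouse 6 (OSM, litter 2) was the lowest for Gja4, Gja5 and Tmem100. The other 5 arterial extremes lay in 5 other mice: Gja4 was highest in mouse 8 and Tmem100 in mouse 3, and Efnb2 was lowest in mouse 5, Bmx in mouse 9 and Gkn3 in mouse 11. For the venous genes, mouse 2 was the highest for Aplnr and Ephb4. Mouse 1 and mouse 6 received the same treatment.

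Gja5 and Ephb4 varied more than most genes of their level. With litter and treatment removed, the residual SD of log2 CPM was 1.37 for Gja5, against a median of 0.45 in the 2097 genes within 0.5 log2 units of its level, and 99.4% of those genes varied less. For Ephb4 it was 0.33 against 0.17 in 376 genes, of which 96.8% varied less. Gja4 had 0.25 against 0.17 (81.9% lower), Bmx 0.58 against 0.45 (74.3%), Aplnr 0.18 against 0.15 (70.3% of 37 genes) and Efnb2 0.39 against 0.32 (69.6%). Gkn3, Tmem100 and Nr2f2 varied less than the median of like genes, with 34.8%, 34.1% and 23.7% of those genes lower. Without mouse 6, Gja5 had a residual SD of 1.01, above 97.3% of like genes, and a 5.50-fold range. At least a 2-fold difference between the highest and the lowest mouse was common, in 7 of the 9 genes and in 81.5% of all genes tested.

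**Figure D3:**
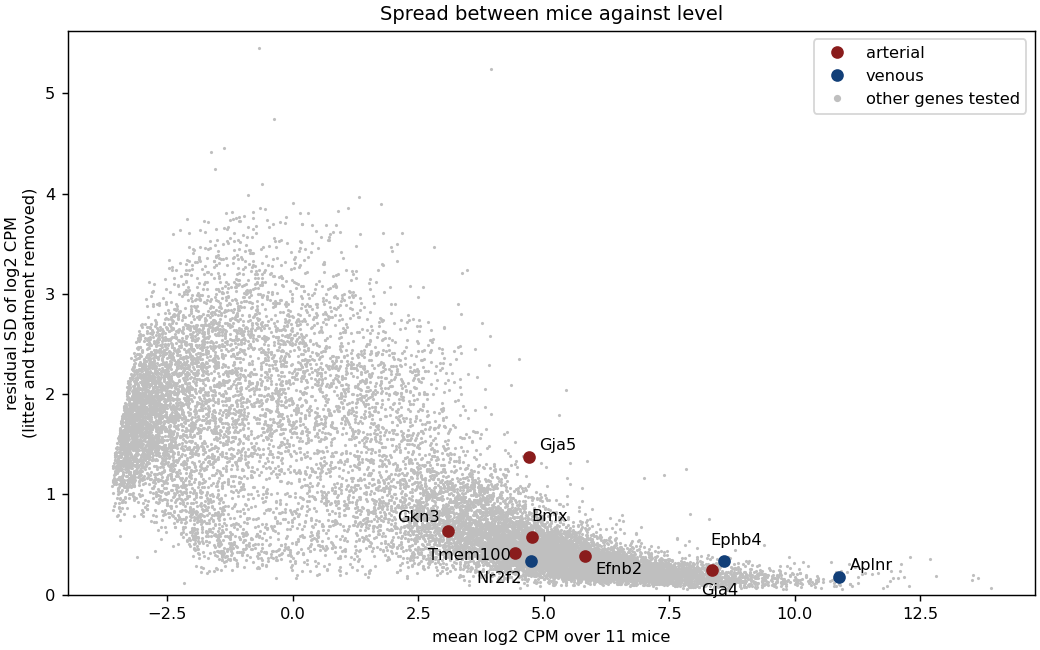
Residual SD of log2 CPM between mice, after litter and treatment were removed, against mean log2 CPM for the 17050 genes tested (grey) with the 6 arterial and 3 venous genes in color. Gja5 lies near the upper edge of the genes of its level at 1.37, Ephb4 above most of its neighbors at 0.33, and Nr2f2 below the median of its own.

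The comparison of OSM with PBS asks whether the cytokine, given 5 days earlier, left a difference in the identity of the sorted cells. With litter as a term, edgeR's quasi-likelihood test called 0 of the 9 genes at an adjusted p under 0.05, and also 0 of all 17050 genes (0%). At an unadjusted p under 0.05 it gave 2 of the 9, against 4.96% of all genes: Aplnr was higher in OSM mice, as were 2.25% of all genes at that threshold, and Gja4 was lower, as were 2.71%. DESeq2's Wald test called 0 of the 9, against 0.757% of the 22207 genes for which it gave an adjusted p. The fitted difference was above 0 for 3 of the 9 genes and 48.4% of all genes, and below 0 for 6 and 51.6%. The OSM and PBS mice did not overlap for 0 of the 9 genes and for 0.405% of all genes.

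The 2 genes with a low unadjusted p were Gja4 and Aplnr. The log2 difference, OSM minus PBS, was -0.35 for Gja4 (SE 0.13, 95% interval -0.65 to -0.05), with an adjusted p of 0.955 in edgeR and 0.395 in DESeq2. Group means were 290.7 ± 27.2 CPM in OSM mice and 367 ± 80.3 CPM in PBS mice (SD, n = 5 and 6). For Aplnr the log2 difference was 0.23 (SE 0.098, 95% interval 0.01 to 0.45), with an adjusted p of 0.955 in edgeR and 0.599 in DESeq2, and means of 2077 ± 191 and 1774 ± 227 CPM. Neither passed the test, so the data do not set either apart from the differences among 17050 genes.

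For the other genes the intervals show which differences the 11 mice could not resolve. The narrowest was that of Ephb4, at -0.58 to 0.19 around a log2 difference of -0.20. Efnb2 had -0.01 with an interval of -0.49 to 0.47, Nr2f2 0.11 with -0.38 to 0.60, and Tmem100 -0.08 with -0.64 to 0.49. The widest were those of Gja5, -1.51 to 1.19 around -0.16, Gkn3, -0.40 to 1.48 around 0.54, and Bmx, -0.88 to 0.61 around -0.14. A difference of 2-fold in either direction lies inside the interval of Gja5. The adjusted p was 1 for these 7 genes in edgeR.

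**Figure D4:**
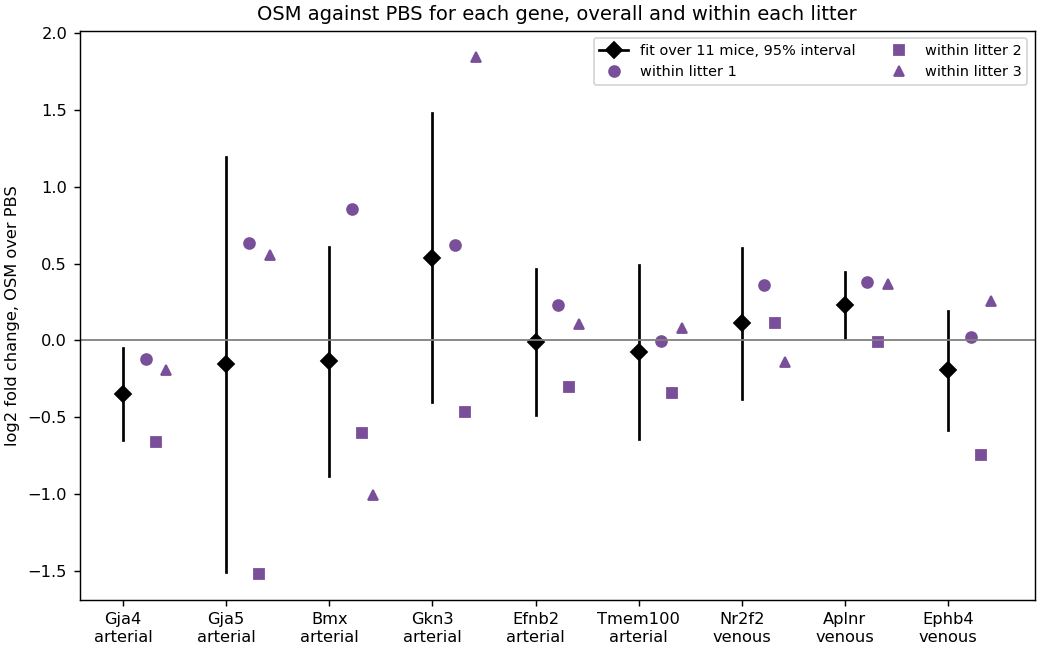
Log2 fold change of OSM over PBS for each gene. Black diamonds and lines are the edgeR estimates over 11 mice with 95% intervals derived from the F statistic of its test. Purple symbols are the differences of mean log2 CPM within litters 1, 2 and 3. The intervals of Gja4 and Aplnr do not cross 0 before adjustment for 17050 genes, and within litters only Gja4 has the same sign in all 3.

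Within litters, the sign of the difference was the same in all 3 for 1 of the 9 genes, Gja4, and for 25.8% of all genes tested (lower in all 3 litters for 14.6% and higher for 11.3%). Gja4 differed by -0.12, -0.66 and -0.19 on the log2 scale in litters 1, 2 and 3. Aplnr differed by 0.38, -0.01 and 0.37. The arterial genes Gja5, Gkn3 and Efnb2 had a higher mean in OSM mice in litters 1 and 3 and a lower one in litter 2. The values were 0.64, -1.52 and 0.55 for Gja5, 0.62, -0.47 and 1.84 for Gkn3, and 0.23, -0.30 and 0.11 for Efnb2. The venous genes Aplnr and Ephb4 (0.02, -0.75 and 0.26) had the same signs, Aplnr near 0 in litter 2 and Ephb4 near 0 in litter 1. The share of all genes with these signs was not counted. Litter 3 holds 1 OSM mouse, so its value rests on mouse 9.

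Bmx and Ephb4 had the lowest p for a treatment difference that varies between litters. In Bmx the differences were 0.85, -0.61 and -1.01 on the log2 scale, and in Ephb4 0.02, -0.75 and 0.26. The interaction test of edgeR gave adjusted p-values of 0.656 and 0.670, and called 0 of the 9 genes and 0% of all genes. At an unadjusted p under 0.05 it gave these 2 of the 9, against 6.42% of all genes, and no other tool was run for the interaction. The summed rod markers differed by -0.05, 2.30 and -2.24 in litters 1, 2 and 3, opposite in sign to Ephb4 in each, with both near 0 in litter 1. They were highest in OSM mice 5 and 6, at 4540 and 1544 CPM, the mice with the lowest Ephb4. PBS mouse 10, next in rod markers at 1248 CPM, had 366 CPM of Ephb4. PBS mouse 11 of the same litter had 312 CPM of rod markers and a lower Ephb4 of 318 CPM. The part of rod RNA in these differences was not tested.

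Markers of other cells also differed between the groups. In the mural list, 11 of the 12 genes were tested, and 11 had a lower fitted level in OSM mice, against 51.6% of all genes. The median log2 difference of these mural genes was -0.75. Mural markers summed to 424 to 884 CPM in OSM mice and 332 to 1820 CPM in PBS mice, and their log2 differences within litters 1, 2 and 3 were -0.84, -0.07 and -1.65, beside -0.12, -0.66 and -0.19 for Gja4. In the erythrocyte list all 5 genes tested were higher in OSM mice (median 1.12), against 48.4% of all genes. Summed levels of that list were 361 to 1129 CPM in OSM mice and 117 to 596 CPM in PBS mice. No gene of either list passed the test, and 5 of the 5 erythrocyte genes and 2 of the 11 mural genes had an unadjusted p under 0.05 in edgeR, against 4.96% of all genes. Endothelial markers had a median log2 difference of 0.00, and all genes tested had -0.01. The part of mural or blood RNA in the values of the 9 genes was not tested.

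Tmem100 was the gene in which litters differed most clearly. Its mean was 35.5 ± 2.23 CPM in litter 1 (SD, n = 4), 17.3 ± 5.56 in litter 2 (n = 4) and 16.0 ± 4.48 in litter 3 (n = 3), and the fitted level was lower than in litter 1 by -1.04 and -1.16 on the log2 scale. The edgeR test across litters gave an adjusted p of 0.216 and called 0 of the 9 genes, against 3 of all genes (0.0176%). DESeq2's likelihood ratio test gave an adjusted p of 0.00351 for Tmem100, the 1 gene of the 9 that it called, against 6.88% of the genes for which it gave an adjusted p. The call thus depends on the tool. Litter 1 lay apart from the other litters in 1 of the 9 genes and in 2.97% of all genes, and above them in 1 of the 9 and in 1.52%.

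The other genes differed less between litters. Unadjusted, 2 of the 9 had a p under 0.05 in edgeR (Tmem100 and Bmx), against 10.3% of all genes. Bmx had 42.8 ± 16.7 CPM in litter 1, 25.1 ± 6.96 in litter 2 and 19.9 ± 9.37 in litter 3, with an adjusted p of 0.469 in edgeR. Gja5 had 44.7 ± 28.1, 21.7 ± 13.7 and 36.0 ± 20.2 CPM, with an adjusted p of 0.793. Aplnr was at 1906 ± 314, 1945 ± 234 and 1874 ± 304 CPM, with an adjusted p of 0.998 in edgeR. Each litter was 1 OIR run, so litter and run cannot be told apart.

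As a summary for each mouse, the mean log2 RPKM of the 3 venous genes was taken from that of the 6 arterial genes. This difference was -2.25 ± 0.44 over 11 mice, from -1.54 in mouse 1 to -3.00 in mouse 6. The mean of the venous genes was thus the higher in each mouse, which does not hold gene by gene. Nr2f2 had the lowest mean log2 RPKM of the 9, and Gja4 was above Ephb4 in 11 of 11 mice. The difference was -1.54, -2.14, -2.21, -3.00 and -2.47 in OSM mice 1, 2, 5, 6 and 9, and -1.57, -2.35, -2.35, -1.99, -2.41 and -2.68 in PBS mice 3, 4, 7, 8, 10 and 11. The group means were -2.27 ± 0.53 and -2.22 ± 0.39 (SD, n = 5 and 6). The difference of OSM and PBS mice within litters was 0.12, -0.43 and 0.07, with a mean of -0.08. With the log2 ratio of summed RPKM as the score, that mean was -0.44, so its size depends on the measure. As scores over a chosen list, these were given no test.

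The arterial side carried most of the variation in this difference. The arterial mean had an SD of 0.50 over the 11 mice around 3.35, and the venous mean an SD of 0.14 around 5.59. Spread also depends on level. Genes of like level had a median residual SD of 0.45 for Gja5 and Bmx, 0.76 for Gkn3, 0.50 for Tmem100, 0.32 for Efnb2 and 0.17 for Gja4. On the venous side that median was 0.15 for Aplnr, 0.17 for Ephb4 and 0.45 for Nr2f2. The part of level in the variation of the 2 means was not tested. The 4 mice of litter 1 averaged -1.90 ± 0.41, those of litter 2 -2.38 ± 0.44 and the 3 mice of litter 3 -2.52 ± 0.14, with overlap of litter 2 with both others. The size of the difference depends on which genes enter, most of all on Nr2f2, without which it was -4.29, and on Aplnr, without which it was -0.54.

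**Figure D5:**
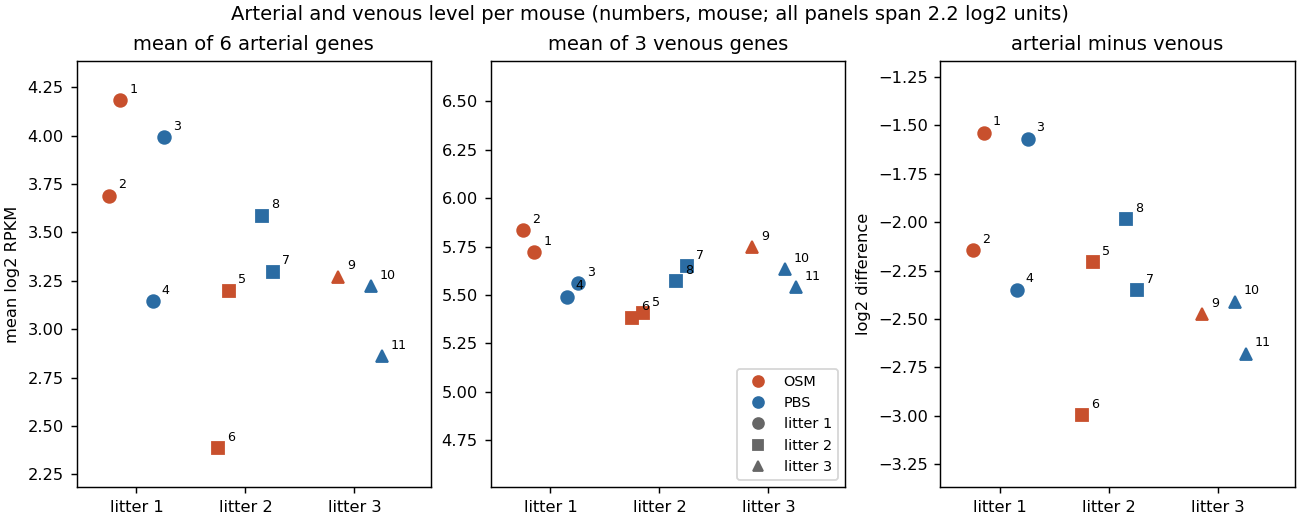
Mean log2 RPKM of the 6 arterial genes, of the 3 venous genes, and their difference in each mouse, by litter, with colors for OSM and PBS and the number of the mouse beside each point. All panels span the same number of log2 units. The arterial mean runs from 2.39 (mouse 6) to 4.18 (mouse 1), the venous mean from 5.38 to 5.83, and OSM and PBS mice overlap in each panel.

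Further genes of the same territories were examined in the comparison of OSM with PBS. Among 18 further arterial genes, all tested, 9 had a higher and 9 a lower fitted level, with a median log2 difference of -0.00, and 0 were called by edgeR. The lowest p was that of Cxcr4, a chemokine receptor of sprouting and arterial cells, at -0.61 (SE 0.23) with an adjusted p of 0.955 in edgeR. Vegfc, a growth factor of lymphatic and blood vessels, had 0.25 (SE 0.18) and Mgp, an inhibitor of calcification, -0.24 (SE 0.24). Among 12 further venous genes, 5 were higher and 7 lower, with a median of -0.05 and 0 called. Slc38a5, an amino acid transporter, had a log2 difference of 0.19 (SE 0.088).

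The regulators upstream of arterial fate, 15 genes of Notch, SOX, FOXC, BMP and flow-response signaling, were 8 higher and 7 lower, with a median of 0.03, 0 called and 0 at an unadjusted p under 0.05 in edgeR. The lowest p-values in that list belonged to Klf4, a transcription factor induced by flow, at 0.29 (SE 0.15), and to the Notch ligand Jag1 at -0.30 (SE 0.22). Of the 8 capillary markers, 8 had a higher fitted level in OSM mice, against 48.4% of all genes. Their median log2 difference was 0.15, and 0 were called. Slc16a1, a lactate transporter of the blood-retinal barrier, had 0.30 (SE 0.12), with an adjusted p of 0.955 in edgeR. At an unadjusted p under 0.05 edgeR gave 1 of the 18 arterial, 1 of the 12 venous and 1 of the 8 capillary genes, against 4.96% of all genes. Between litters, 7 of the 18 arterial, 6 of the 12 venous and 4 of the 15 upstream genes had an unadjusted p under 0.05 in edgeR. So did 4 of the 8 capillary markers and 4 of the 10 general endothelial markers, so this was not particular to arterial or venous genes. The share of all genes was 10.3%. None of these list genes was called between litters, against 0.0176% of all genes.

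Partners and relatives of the 9 genes were detected to differing extents in the sorted samples. Markers of other cells were present in these samples too, and the part of their RNA in the levels below was not tested. Apln, the ligand of the Aplnr receptor, had 142 ± 60.9 RPKM with a log2 difference of -0.28 (SE 0.16), and the second ligand, Apela, had reads in 2 of 11 mice. Gja1 (connexin 43) had 23.3 ± 3.06 RPKM and Gjc1 (connexin 45) 6.45 ± 1.97, and 9 of the 18 further connexin genes had no reads in any mouse. Gjc1 had a log2 difference of -0.41 (SE 0.18), with an adjusted p of 0.955 in edgeR. In the Eph and ephrin-B list, Epha4 had 4.48 ± 1.07 RPKM and Efnb1 3.03 ± 1.57, both below Efnb2 and Ephb4 in the mean. Efnb1 had a log2 difference of -1.09 (SE 0.38), with an adjusted p of 0.955 in edgeR. Nr2f6, a relative of Nr2f2, had 14.7 ± 3.30 RPKM, Tec, a relative of Bmx, 3.69 ± 2.08, and of the other gastrokine genes Gkn1 was detected in 2 mice and Gkn2 in 0.

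The genes whose log2 CPM followed each of the 9 most closely over the 11 mice were sought among 10335 genes with at least 10 counts in every mouse. For Gja4 these were Cltb (Pearson r = 0.95, Spearman rho = 0.96) and Ddah2 (r = 0.90), and for Tmem100 Sh3bp5l (r = 0.95, rho = 0.96) and Ecm1 (r = 0.94). Ephb4 was closest to Myo1c (r = 0.95, rho = 0.98) and Map3k11 (r = 0.90), and Gja5 to Rb1 (r = 0.94, rho = 0.88) and Ctbp1 (r = 0.90). Efnb2 was followed by Dapk2 (r = 0.93) and Colgalt2 (r = 0.89), Bmx by Trib1 (r = 0.90) and Zfand2a (r = 0.89), Nr2f2 by Aarsd1 (r = 0.91) and Zfyve9 (r = 0.89), Aplnr by Tmem86a (r = 0.91) and Tspyl3 (r = 0.88), and Gkn3 by Fnip1 (r = 0.89) and Ino80b (r = 0.88). None of these 18 genes is another of the 9. The points share libraries, litters and treatments, and a best match out of this many genes over 11 mice is high by selection, so the values are a description.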

How the data were processed

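Endothelial cells (CD31+ CD45-) of 11 mice were analysed, and samples were grouped by the treatment and litter in their labels. The authors made cDNA from poly(A) RNA with PCR and without molecular identifiers, aligned single reads to GRCm39 with STAR, counted them on GENCODE genes with featureCounts and deposited raw counts per gene. Strand was not used, and reads on exons of more than 1 gene were left out, under the standard settings the methods name. Intervals for counting error were not used, because PCR copies are not independent, and p-values rest on the spread between mice.

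Symbols, positions and exon lengths came from GENCODE vM39, which holds 54749 of the 55359 genes. Counts were tested with edgeR 4.0.16 in R 4.3.3: filterByExpr with a count minimum of 10, TMM, robust quasi-likelihood fits, litter and treatment as terms, litter by treatment for the interaction, two-sided, and Benjamini-Hochberg adjustment over 17050 genes at 0.05. RPKM used all exon bases, and log2 values a prior count of 2. DESeq2 1.42.0, other filters and scalings, and leaving out each mouse or litter were alternatives. The scripts were checked on simulated counts. Of the lists, genes were named by up to 3 lowest p-values, by level in the lists of relatives, and, for each of the 9, by the 2 highest r. The 9 genes and all lists were chosen with earlier results of these data known. Some genes of the lists are not reported here by name.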

Additional observations from a re-analysis of the deposited data

Results flagged for a closer look

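Of the 20 sets of values examined, the 9 genes and the arterial minus venous difference in each treatment group, 2 held a mouse far from the rest of its group, where chance gives about 1 in 20. Bmx in PBS mouse 10 had 18.0 CPM, and the next lowest PBS mouse had 27.6 CPM. Aplnr in PBS mouse 8 had 2212 CPM, and the next highest PBS mouse had 1813 CPM. Without mouse 8 the log2 difference of Aplnr was 0.32 and without mouse 10 that of Bmx was -0.16, and neither passed the test.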

How the results depend on the processing

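No paired analysis was possible because the groups share no replicate numbers, and litter served as the block. None of the 9 genes was called for OSM against PBS in 23 alternatives or for the interaction in 7. Over all genes, OSM against PBS gave 0 calls in edgeR, 65 without a filter on low counts and 168 in DESeq2, and the interaction 0 and, without the filter, 305. Between litters there were 3 calls over all genes, 18 without TMM, 625 without the filter, 109 with at least 10 counts in every mouse, 14 with a filter by treatment group (added after seeing the data), 15 in thinned counts, 0 to 44 when 1 mouse was left out (44 without mouse 8) and 988 in DESeq2, where 1 of the 9 genes, Tmem100, was called.

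Gja4, Gkn3 and Aplnr kept the sign of their log2 difference in all 23 alternatives, over -0.48 to -0.17, 0.04 to 1.09 and 0.14 to 0.37. Leaving out 1 mouse gave -0.43 to 0.18 for Gja5, -0.36 to 0.15 for Bmx, -0.15 to 0.12 for Efnb2, -0.25 to 0.084 for Tmem100 and -0.0032 to 0.30 for Nr2f2. Without the litter term, Bmx was at 0.21, Efnb2 at 0.0079 and Tmem100 at 0.027. Without litter 2, Gja5 was at 0.27, Bmx 0.17, Efnb2 0.17, Tmem100 3.3e-04 and Ephb4 0.12. Bmx was at 0.15 without litter 3, and Nr2f2 at -0.046 without litter 1. These signs are thus not fixed, and the cause was not tested.

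The arterial minus venous difference was -2.32 to -2.17 when 1 mouse was left out, -2.89 in log2 CPM, -1.68 as the log2 ratio of summed RPKM, -3.02 without Gja4, -4.29 without Nr2f2 and -0.54 without Aplnr. Its OSM minus PBS mean over litters was -0.08, and -0.21 to 0.05 when 1 mouse was left out. That mean was -0.22 without Gkn3 and -0.44 as the log2 ratio of summed RPKM, the lowest of 25 alternatives. With the longest transcript as length, 5 genes changed rank. The fewest reads behind a value were the 95 of Gja5 in mouse 6, and thinning all libraries to the smallest left its log2 difference at -0.16.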
